A study of Mus musculus with 2 samples.

Results

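The Kruppel-like factors (KLFs) are zinc-finger transcription factors, and the 10 described here are Klf2, Klf3, Klf4, Klf5, Klf6, Klf7, Klf9, Klf10, Klf13 and Klf15, out of 16 Klf genes and 19169 genes in the deposited table. They were taken as a list of named genes, selected on a low level of Klf4 in one of the libraries of this same table, so that its relatives could be read in the same cells. The ratios of Klf4 are therefore a description and not a test. All 10 had UMIs (unique molecular identifiers, each standing for 1 captured transcript) in both libraries, and their totals ran from 204 UMIs for Klf15 to 158832 for Klf4. The cells came from the gastrocnemius muscle of male mice, digested with enzymes at 37 °C, 14 days after an injection of cardiotoxin (CTX), a snake venom toxin that destroys muscle fibers and starts regeneration. One library, WT-CTX, was made from wild-type C57BL/6J mice. The other, GSDME-KO-CTX, was made from mice that lack gasdermin E in all their cells, gasdermin E being a protein that opens pores in the membrane during pyroptosis. Each genotype had 5 mice, their age and pooling are not given in the sources used here, and both libraries come from injured muscle. With 1 library per genotype there is no replicate, so no p-value is given, the 95% intervals cover counting error only, and genotype and library cannot be told apart.

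KLFs bind GC-rich and CACCC sequences through 3 zinc fingers at the carboxyl end and differ in the amino-terminal part that recruits activators or repressors. KLF2, KLF4, KLF5, KLF6 and KLF7 belong to the group that mostly works with acetyltransferases, KLF3 binds the corepressor CtBP, KLF9, KLF10 and KLF13 bind the corepressor Sin3A, and KLF15 stands outside these groups. KLF2 and KLF4 are known for keeping endothelium quiescent under flow, KLF4 also for its part in resident macrophages and monocytes, and several members, KLF2, KLF4 and KLF6 among them, are induced within minutes by stress, as the immediate-early genes are.

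There were 6354 cells in WT-CTX (44758518 UMIs, 5740 in the median cell) and 7078 in GSDME-KO-CTX (50930010 UMIs, 5962.5 in the median cell), and the libraries had 4 cell barcodes in common. Gsdme itself was read at 5.03 CPM (UMIs per 1000000 of a library's or cell type's UMIs; 4.39 to 5.73) in WT-CTX and 4.65 CPM (4.08 to 5.29) in GSDME-KO-CTX, a log2 ratio of -0.11 (-0.38 to 0.16), so the targeted gene did not tell the libraries apart and the genotype rests on the labels. Cells were clustered without any Klf or Sp gene and named from marker genes, and 11 of the types so named had 50 or more cells in both libraries. One of them, red cell-like cells (343 and 307 cells, a median of 724 and 755 UMIs, led by immunoglobulin and hemoglobin genes), was left out of the counts over types after it was seen, and its values are given beside them. The other 10 are fibro-adipogenic progenitors (FAPs, the stromal cells of muscle), tendon cells, endothelium, pericytes, smooth muscle, macrophages, dendritic cells, T cells, muscle stem cells (MuSCs) and Schwann cells. Each name carries "-like" because it rests on markers alone. Pericyte-like cells also carried endothelial markers, at 5213 CPM in WT-CTX and 5717 CPM in GSDME-KO-CTX against 6935 and 7646 CPM in endothelial-like cells, so their levels of endothelial KLFs cannot be given to pericytes alone. Pericyte-like and endothelial-like cells are thus not wholly separate in the counts over types. Smooth muscle-like cells carried pericyte markers at 16392 and 19570 CPM, above their smooth muscle markers at 7440 and 5413 CPM. Those pericyte levels were also above the ones in pericyte-like cells, at 7033 and 9583 CPM. The values of smooth muscle-like cells therefore cannot be given to smooth muscle alone. Red cell markers in them stood at 90.0 CPM in WT-CTX and 16304 CPM in GSDME-KO-CTX. Between the libraries, RNA of other sources and of stress also differed. Hemoglobin and other red cell markers stood at 688 CPM in WT-CTX and 2096 CPM in GSDME-KO-CTX over all cells, FAP markers in macrophage-like cells at 1593 and 2311 CPM, and of 8 heat-shock genes 8 were at least 1.5-fold higher in GSDME-KO-CTX in FAP-like cells, 7 in tendon-like, 5 in macrophage-like, 5 in MuSC-like and 3 in endothelial-like cells. The part of any of these in the values of the KLFs was not tested.

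Each member had its own distribution over the cell types. Klf2 was highest in endothelial-like cells, at 2207 CPM (2175 to 2240) in WT-CTX and 2284 CPM (2250 to 2318) in GSDME-KO-CTX, and lowest in MuSC-like cells, at 72.7 and 107 CPM, a span of 30.4-fold in WT-CTX and 21.3-fold in GSDME-KO-CTX. Klf4 was highest in tendon-like cells in both libraries, although in GSDME-KO-CTX FAP-like cells (1754 CPM, 1735 to 1773) overlapped them (1767 CPM, 1729 to 1806). Its WT-CTX levels were 2846 CPM in tendon-like, 2411 CPM in endothelial-like and 2322 CPM in FAP-like cells, and the lowest was 431 CPM in T-like cells. Every neighbouring pair in that order was separate in its intervals except smooth muscle-like (1296 CPM) with MuSC-like (1236 CPM) and dendritic-like (534 CPM) with T-like cells. These intervals count summed UMIs and leave out the spread between cells, so the order of types is a description. Klf6, a factor induced by injury in several tissues, had the narrowest span of the members read in all 10 types, with 1493 CPM in macrophage-like cells of WT-CTX as its highest and 578 CPM in MuSC-like cells as its lowest, a span of 2.58-fold.

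**Figure D1:**
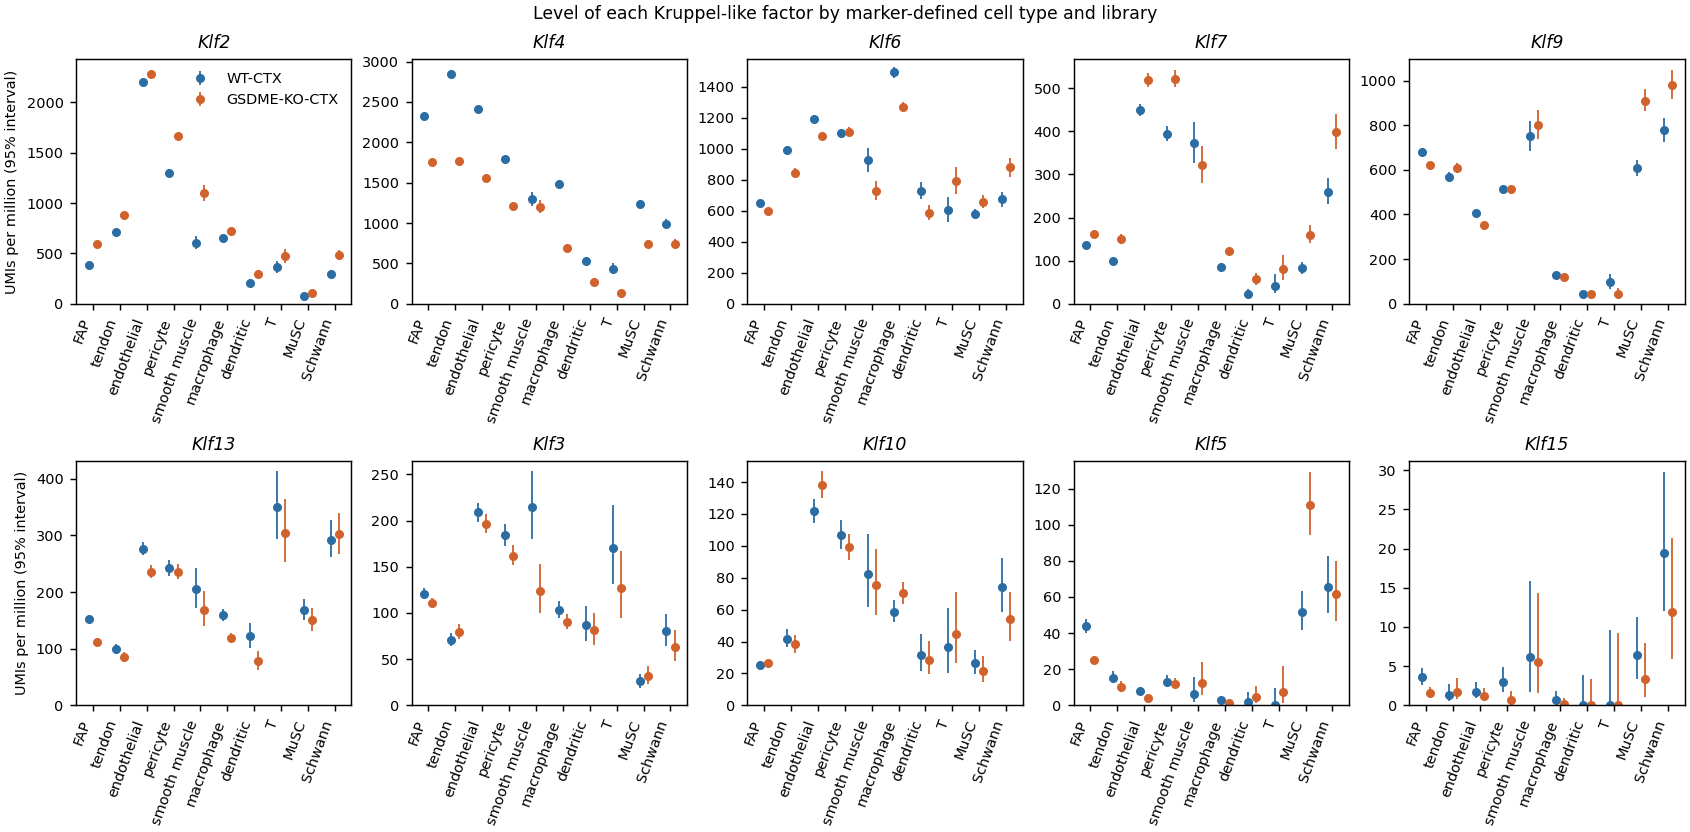
Level of each of the 10 factors (vertical axis, CPM, starting at 0) in 10 marker-defined cell types (horizontal axis), with 1 point per library (blue WT-CTX, orange GSDME-KO-CTX) and the exact 95% Poisson interval of the counts. Klf2 peaks in endothelial-like cells, Klf6 in macrophage-like cells and Klf5 in MuSC-like, Schwann-like and FAP-like cells, and the blue points of Klf4 lie above the orange ones in all 10 types.

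The less abundant members differed in where they were highest. Klf7, known for its part in neurons and in the block of fat cell differentiation, was highest in endothelial-like cells of WT-CTX at 449 CPM and in pericyte-like cells of GSDME-KO-CTX at 522 CPM, where endothelial-like cells at 520 CPM overlapped it, and was at 22.0 and 56.6 CPM in dendritic-like cells. Klf5, a factor of proliferating epithelium and smooth muscle, was read at 65.7 CPM in Schwann-like, 51.7 CPM in MuSC-like and 43.8 CPM in FAP-like cells of WT-CTX, and at under 20 CPM in each of the other 7 types. In T-like cells it had 0 UMIs in WT-CTX, which allows a level of up to 9.63 CPM, and 3 in GSDME-KO-CTX. Klf9, a target of thyroid hormone and glucocorticoid receptors, was high in Schwann-like (777 CPM), smooth muscle-like (750 CPM) and FAP-like (682 CPM) cells of WT-CTX, and stood at 127 CPM in macrophage-like and 43.0 CPM in dendritic-like cells. Klf13, known for its action in T cells, was highest in T-like cells in both libraries, at 350 CPM (293 to 414) and 305 CPM (253 to 364), although Schwann-like cells at 293 and 302 CPM overlapped that interval. Klf10, a gene induced by TGF-β, was highest in endothelial-like cells, at 122 and 138 CPM. Klf3 stood at 214 CPM in smooth muscle-like and 209 CPM in endothelial-like cells of WT-CTX, whose intervals overlapped, and at 25.8 CPM in MuSC-like cells. Klf15, a factor of amino acid and glucose metabolism in muscle fibers and liver, was close to the limit of detection, with 126 UMIs in all of WT-CTX and 78 in all of GSDME-KO-CTX. Its highest level was in Schwann-like cells, at 19.4 and 11.9 CPM, and dendritic-like and T-like cells had 0 UMIs, which allows up to 3.87 and 9.63 CPM in WT-CTX.

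The lower Klf4 of the GSDME-KO-CTX library was not shared by every relative. Klf4 and Klf13 were lower and Klf2 and Klf7 were higher in GSDME-KO-CTX in each of the 5 types in which calls were made (FAP-like, tendon-like, endothelial-like, macrophage-like and MuSC-like cells), and the remaining 4 of the 8 members with at least 50 UMIs in all 5 types had mixed signs. Over all 6048 genes read at that depth, 14.2% were lower by any amount in all 5 types and 13.7% were higher, so the 2 of 8 members that were higher are to be read against the second share. Klf4 chose the list, and without it the count of lower members is 1 of 7, which is near the first share. Over the 10 types, Klf4 was lower in 10 and its interval lay below 0 in 9. Klf2 was higher in 10 of 10, with the interval above 0 in all of them. After each cell was thinned to 1000 UMIs, the share of cells with a Klf2 UMI did not follow in every type. It was lower in GSDME-KO-CTX in macrophage-like, endothelial-like, MuSC-like and dendritic-like cells and higher in the other types. The intervals of the lower shares were apart in macrophage-like cells alone. In the red cell-like cells left out, Klf4 was at 2127 and 1339 CPM (-0.67, -0.84 to -0.50) and Klf2 was at 1745 and 1560 CPM (-0.16, -0.34 to 0.01), and in types with under 50 cells in a library Klf2 was at 450 and 96.9 CPM in mature muscle-like cells (-2.22) and at 410 and 395 CPM in NK-like cells (-0.05). Klf7 was higher in 9 of 10, again with the interval above 0 in 9, and Klf13 was lower in 9 of 10, with the interval below 0 in 5. The share of all genes with the same sign over the 10 types was not computed, so these counts are a description.

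**Figure D2:**
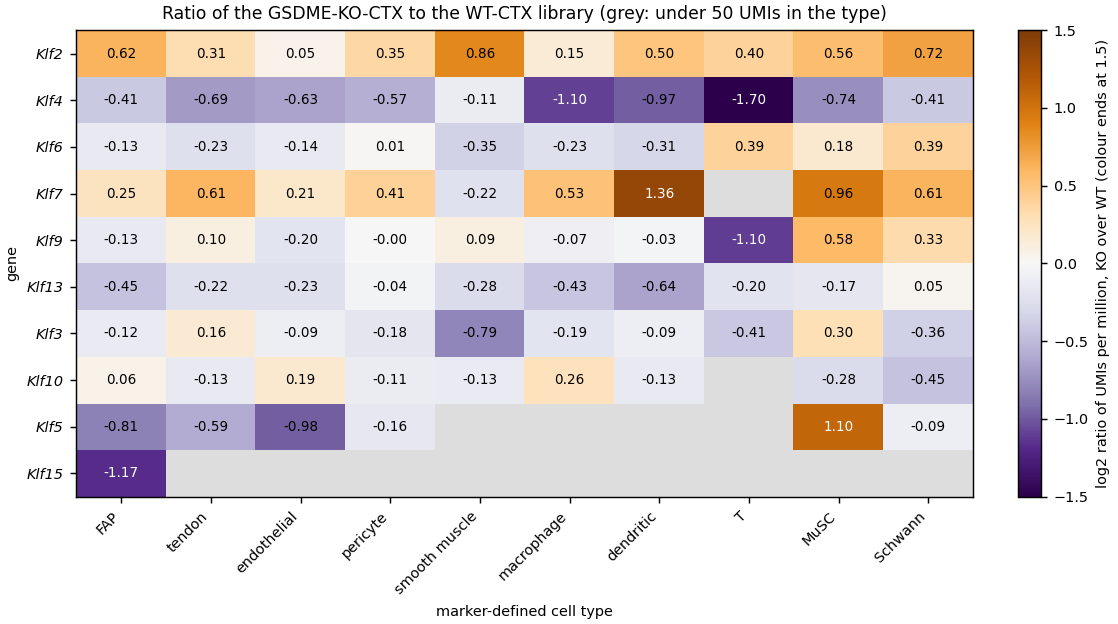
Log2 ratio of CPM in GSDME-KO-CTX over WT-CTX for each of the 10 factors (rows) in 10 marker-defined cell types (columns), in purple where lower and orange where higher in GSDME-KO-CTX. Squares with under 50 UMIs are grey. The row of Klf4 is purple throughout, from -0.11 to -1.70, while the row of Klf2 is orange throughout, from 0.05 to 0.86.

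Calls past 1.5-fold, among genes with at least 50 UMIs over both libraries in a type, set the members against all genes of that type. In FAP-like cells 2 of 10 members were past it downward (Klf5 and Klf15), beside 6.51% of 11480 genes, and 1 was past it upward (Klf2), beside 3.66%, a call that was lost when cells were named by marker scores (lowest log2 ratio 0.55). Tendon-like cells had 2 of 9 members downward (Klf4 and Klf5), against 4.22% of genes, and 1 upward (Klf7), against 6.99%. For endothelial-like cells the numbers were 2 of 9 downward (Klf4 and Klf5), beside 3.52%, and 0 upward, beside 4.56%. Macrophage-like cells had 1 of 8 members downward, Klf4, beside 6.22%, and 0 upward, beside 5.26%. In MuSC-like cells 1 of 9 was downward, Klf4, beside 9.87%, and 2 were upward, Klf5 and Klf7, beside 13%. Since Klf4 chose the list, nothing is read from its own place in these counts. The tendon-like call of Klf5 was lost under 9 other settings and that of Klf7 under 1. The median log2 ratio of the members tested was -0.13 in FAP-like cells against -0.06 for all genes tested there, -0.13 against 0.05 in tendon-like, -0.14 against 0.04 in endothelial-like, -0.13 against -0.03 in macrophage-like and 0.30 against 0.02 in MuSC-like cells. These medians include Klf4, which chose the list, so no shift of the members as a set is read from them.

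Of the 10 types, macrophage-like, dendritic-like and T-like cells had the lowest Klf4 ratios. Macrophage-like cells had 1482 CPM in WT-CTX and 692 CPM in GSDME-KO-CTX, a log2 ratio of -1.10 (-1.16 to -1.04). Dendritic-like cells had 534 and 272 CPM (log2 ratio -0.97, -1.18 to -0.77) and T-like cells 431 and 132 CPM (log2 ratio -1.70, -2.18 to -1.25), the latter from 165 and 53 UMIs. T-like cells also carried FAP markers, at 2836 CPM in WT-CTX and 1574 CPM in GSDME-KO-CTX, and tendon markers, at 601 and 24.98 CPM. In dendritic-like cells FAP markers stood at 1261 and 595 CPM, while tendon markers went the other way, at 16.79 and 27.83 CPM. The part of this stromal RNA in the Klf4 ratios of both types was not tested. The smaller immune types, each under 50 cells in a library, did not share one sign, with log2 ratios of 0.13 (-0.50 to 0.77) in B-like, -0.22 (-0.81 to 0.35) in NK-like, -0.59 (-1.04 to -0.16) in neutrophil-like and 0.93 (0.18 to 1.69) in mast-like cells. MuSC-like cells had 1236 and 740 CPM (log2 ratio -0.74), tendon-like cells 2846 and 1767 CPM (log2 ratio -0.69), and endothelial-like cells 2411 and 1553 CPM (log2 ratio -0.63). In FAP-like cells, which held the most Klf4 UMIs, the levels were 2322 and 1754 CPM and the log2 ratio was -0.41 (-0.43 to -0.38). Smooth muscle-like cells had 1296 and 1198 CPM, and their interval, -0.25 to 0.03, held 0. The share of cells with a Klf4 UMI also differed in macrophage-like cells. After each cell was thinned to 1000 UMIs, which left out 82 WT-CTX and 96 GSDME-KO-CTX cells, 59.9% (56.4 to 63.4) of macrophage-like cells in WT-CTX had a Klf4 UMI and 35.8% (32.7 to 38.9) in GSDME-KO-CTX, against 83.4% and 64.0% unthinned. In T-like cells, the type with the lowest Klf4 level, the shares were 17.5% (9.91 to 27.6) and 11.6% (5.72 to 20.3), which overlap. The median depth before thinning was 5329 and 5363 UMIs in macrophage-like and 4203 and 3922 UMIs in T-like cells.

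Klf2, which shares its endothelial role with KLF4, had the opposite sign. In FAP-like cells its level was 386 CPM in WT-CTX and 593 CPM in GSDME-KO-CTX, a log2 ratio of 0.62 (0.57 to 0.67), and 96.8% of the genes tested had a lower ratio. Smooth muscle-like cells had 605 and 1098 CPM, with the largest ratio of the 10 types (log2 ratio 0.86, 0.68 to 1.04), Schwann-like cells 293 and 483 CPM (log2 ratio 0.72), and MuSC-like cells 72.7 and 107 CPM (log2 ratio 0.56, 0.22 to 0.90). The smooth muscle-like cells, as given above, also carried pericyte markers and differed between the libraries in red cell markers. In endothelial-like cells, where Klf2 is at its highest, the libraries were nearly level, at 2207 and 2284 CPM (log2 ratio 0.05, 0.02 to 0.08). Macrophage-like cells were also close, at 656 and 727 CPM (log2 ratio 0.15, 0.08 to 0.22). There the share of thinned cells with a Klf2 UMI was 37.9% in WT-CTX and 30.0% in GSDME-KO-CTX, opposite in sign to the level, so no order is read from it. The share was also opposite to the level in MuSC-like (8.23% and 6.56%), endothelial-like (74.0% and 70.7%) and dendritic-like cells (17.3% and 16.3%), with overlapping intervals. In FAP-like cells the shares overlapped too, at 25.2% and 27.1%, and were 61.7% and 60.3% unthinned.

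Klf7, also of the activating group, was higher in most types. Its level was 84.9 CPM in WT-CTX and 122 CPM in GSDME-KO-CTX in macrophage-like cells (log2 ratio 0.53, 0.35 to 0.70), 98.2 and 150 CPM in tendon-like cells (0.61, 0.44 to 0.77), and 82.4 and 160 CPM in MuSC-like cells (0.96, 0.66 to 1.26). The exception was smooth muscle-like cells, at 373 and 321 CPM with an interval that held 0. Klf6 differed little. It was lower in GSDME-KO-CTX in macrophage-like cells, with 1493 and 1272 CPM (log2 ratio -0.23, -0.28 to -0.18), and higher in Schwann-like cells, at 672 and 879 CPM (0.39, 0.24 to 0.53), and its ratios over the 10 types lay between -0.35 and 0.39. Klf5 was split by cell type. It was lower in FAP-like cells, with 43.8 and 24.9 CPM (log2 ratio -0.81, from 560 and 453 UMIs), and higher in MuSC-like cells, at 51.7 and 111 CPM (1.10, 0.73 to 1.48). Endothelial-like cells had 8.03 and 4.07 CPM, from 64 and 31 UMIs, and tendon-like cells 15.4 and 10.2 CPM, from 82 and 47 UMIs.

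The members that bind corepressors are Klf13, Klf9, Klf10 and Klf3. Klf13 had 159 CPM in WT-CTX and 118 CPM in GSDME-KO-CTX in macrophage-like cells (log2 ratio -0.43, -0.58 to -0.28), 153 and 112 CPM in FAP-like cells (-0.45, -0.54 to -0.36), 276 and 236 CPM in endothelial-like cells (-0.23, -0.32 to -0.14), and 122 and 78.1 CPM in dendritic-like cells (-0.64, -1.06 to -0.23). Klf9 was at 608 and 911 CPM in MuSC-like cells (log2 ratio 0.58, 0.47 to 0.70), just under 1.5-fold, and within 1.15-fold in FAP-like, tendon-like, endothelial-like and macrophage-like cells. In T-like cells its log2 ratio was -1.10, with an interval below 0, from 37 and 18 UMIs. Klf10 stayed between -0.28 and 0.26 in the 5 types with calls, and its interval was above 0 in endothelial-like and macrophage-like cells. Klf3, the CtBP-binding member, was at 214 and 124 CPM in smooth muscle-like cells (-0.79, -1.19 to -0.39) and lay between -0.41 and 0.30 in the other 9 types. For Klf15 only FAP-like cells gave 50 UMIs, with 46 in WT-CTX and 29 in GSDME-KO-CTX, a log2 ratio of -1.17 (-1.90 to -0.47).

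Promoter sequence was available for 8 of the 10 members in RefSeq (build GRCm38.p6, 250 bases before to 50 after each start site). Klf5 and Klf10 are named only. The windows of Klf4 and Klf13, which were lower in GSDME-KO-CTX, and of Klf2 and Klf7, which were higher, are shown because these are the members whose sign was the same in all 5 types. Capitals mark the GC box GGGCGG, the CACCC box CACCC (each read on both strands, so also as its reverse complement) and the MEF2 site, the element through which MEF2 factors drive flow-responsive genes. Of 32817 promoter windows of the same length, 35.6% held the GC box, 57.5% the CACCC box and 3.19% the MEF2 site. The Klf4 window lies at chr4:55532426-55532725 on the minus strand, Klf13 at chr7:63938866-63939165 on the minus strand, Klf2 at chr8:72318812-72319111 on the plus strand and Klf7 at chr1:64121340-64121639 on the minus strand.
Klf4: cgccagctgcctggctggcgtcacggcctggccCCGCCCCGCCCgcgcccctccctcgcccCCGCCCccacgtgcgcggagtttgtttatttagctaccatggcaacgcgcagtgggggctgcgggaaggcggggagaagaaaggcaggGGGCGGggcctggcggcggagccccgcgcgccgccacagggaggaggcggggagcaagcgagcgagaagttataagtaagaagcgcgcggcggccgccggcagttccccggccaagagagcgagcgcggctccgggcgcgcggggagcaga
Klf13: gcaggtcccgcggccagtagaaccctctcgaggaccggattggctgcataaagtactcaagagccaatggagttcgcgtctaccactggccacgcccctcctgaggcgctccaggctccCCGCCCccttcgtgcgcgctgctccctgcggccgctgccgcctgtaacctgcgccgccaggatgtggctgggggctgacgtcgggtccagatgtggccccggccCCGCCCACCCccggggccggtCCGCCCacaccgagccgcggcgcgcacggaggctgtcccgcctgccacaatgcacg
Klf2: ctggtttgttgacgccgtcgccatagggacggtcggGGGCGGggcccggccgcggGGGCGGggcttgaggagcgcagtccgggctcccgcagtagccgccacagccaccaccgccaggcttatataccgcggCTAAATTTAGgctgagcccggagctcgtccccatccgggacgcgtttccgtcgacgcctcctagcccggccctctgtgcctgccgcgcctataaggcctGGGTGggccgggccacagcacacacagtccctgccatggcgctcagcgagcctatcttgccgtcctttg
Klf7: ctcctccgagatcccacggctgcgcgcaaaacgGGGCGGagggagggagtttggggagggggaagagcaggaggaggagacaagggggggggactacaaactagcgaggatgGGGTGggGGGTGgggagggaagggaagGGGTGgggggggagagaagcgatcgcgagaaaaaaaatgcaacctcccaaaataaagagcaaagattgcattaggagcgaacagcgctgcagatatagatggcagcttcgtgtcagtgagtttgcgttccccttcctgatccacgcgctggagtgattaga
The Klf4 window held 4 GC boxes and no CACCC box, and was 74.3% G and C, against a median of 52.7% over all windows. Klf13 held 3 GC boxes and 1 CACCC box, and Klf2 held 2 GC boxes, 1 CACCC box and, starting 118 bases before the start site, 1 MEF2 site, which no other member's window held. In Klf7 there were 3 CACCC boxes and 1 GC box. A GC box of Klf13 overlaps its CACCC box by 1 base, and 2 of the GC boxes of Klf4 overlap each other by 1 base. The cyclic AMP response element TGACGTCA, the TATA box TATAAA and the CArG box, also searched on both strands and held by 1.79%, 13.6% and 1.63% of windows, were in 0 of the 8. The CCAAT box CCAAT, in 37.4% of all windows, was in those of Klf6 (4 matches), Klf9 (3), Klf13 (2) and Klf15 (1), and the AP-1 site TGANTCA, in 7.81%, in that of Klf9. These matches describe the letters of each window and carry no measurement of binding.

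Within macrophage-like cells the lower Klf4 was read in every group. A second clustering gave 8 groups, of which 2 could be named: resident macrophage-like cells (led by Cd209f, Fcna and Lyve1; 241 WT-CTX and 226 GSDME-KO-CTX cells) and Trem2 macrophage-like cells (led by Mmp12, Gpnmb and Spp1; 77 and 75 cells). Resident macrophage-like cells had 2632 CPM of Klf4 in WT-CTX and 1522 CPM in GSDME-KO-CTX (log2 ratio -0.79, -0.87 to -0.71). Trem2 macrophage-like cells had a far lower level, 463 and 155 CPM (-1.58, -1.89 to -1.27). An unnamed group led by the inflammatory genes Areg, Clec4e and Cxcl3 (225 and 285 cells) had 575 and 209 CPM (-1.46), and another, with Soat2, Cbr2 and Folr2 among its leading genes (120 and 183 cells), had 1867 and 639 CPM (-1.55). Over the 8 groups the log2 ratios ran from -1.98, in 19 and 25 cells led by the interferon-induced genes Cxcl9 and Ifit3, to -0.68. Klf13 was likewise lower in all 8, from -1.59 to -0.05, and Klf7 higher in all 8, from 0.13 to 1.14. The share of all genes with the same sign over all groups of a type was not computed, for these or the later groups.

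Klf2 differed widely between the macrophage groups and had no single sign. It was at 1482 CPM in resident macrophage-like cells of WT-CTX and at 65.9 CPM in Trem2 macrophage-like cells. In the resident group it was higher in GSDME-KO-CTX, at 2293 CPM (log2 ratio 0.63, 0.54 to 0.72), while in the Cbr2 and Folr2 group it was lower, at 654 and 398 CPM (-0.72, -0.91 to -0.53), and in the Trem2 group it was lower too, at 65.9 and 33.1 CPM (-0.99). Klf2 and Jun are themselves among the 10 leading genes of the resident group, and Cbr2 and Folr2 are markers used for the resident name. In cells named resident, the ratio of Klf2 was -0.28 when immediate-early and heat-shock genes were kept out of the clustering and -0.12 at the finer resolution of 0.8. At 0.8 that name covered a cluster led by Cd209f (274 cells) and also one with Soat2, Cbr2 and Folr2 among its leading genes (296 cells). The -0.12 is therefore a value of other cells than the 0.63. The Trem2 group held 317 cells when immediate-early and heat-shock genes were kept out, and its Klf2 ratio was then 1.07. Klf6 was at 2196 and 2317 CPM in the same resident group, with an interval that reached 0. It was at 2194 and 1335 CPM in a shallow group led by hemoglobin genes (126 and 183 cells), and was lower in the Cbr2 and Folr2 group, at 1912 and 1308 CPM (-0.55). In 2 further groups, led by FAP genes such as Col3a1 and Dcn (37 and 47 cells) and by endothelial genes such as Flt1 and Cdh5 (18 and 19 cells), genes of other lineages led. Without them the log2 ratio of Klf4 in macrophage-like cells was -1.18.

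**Figure D3:**
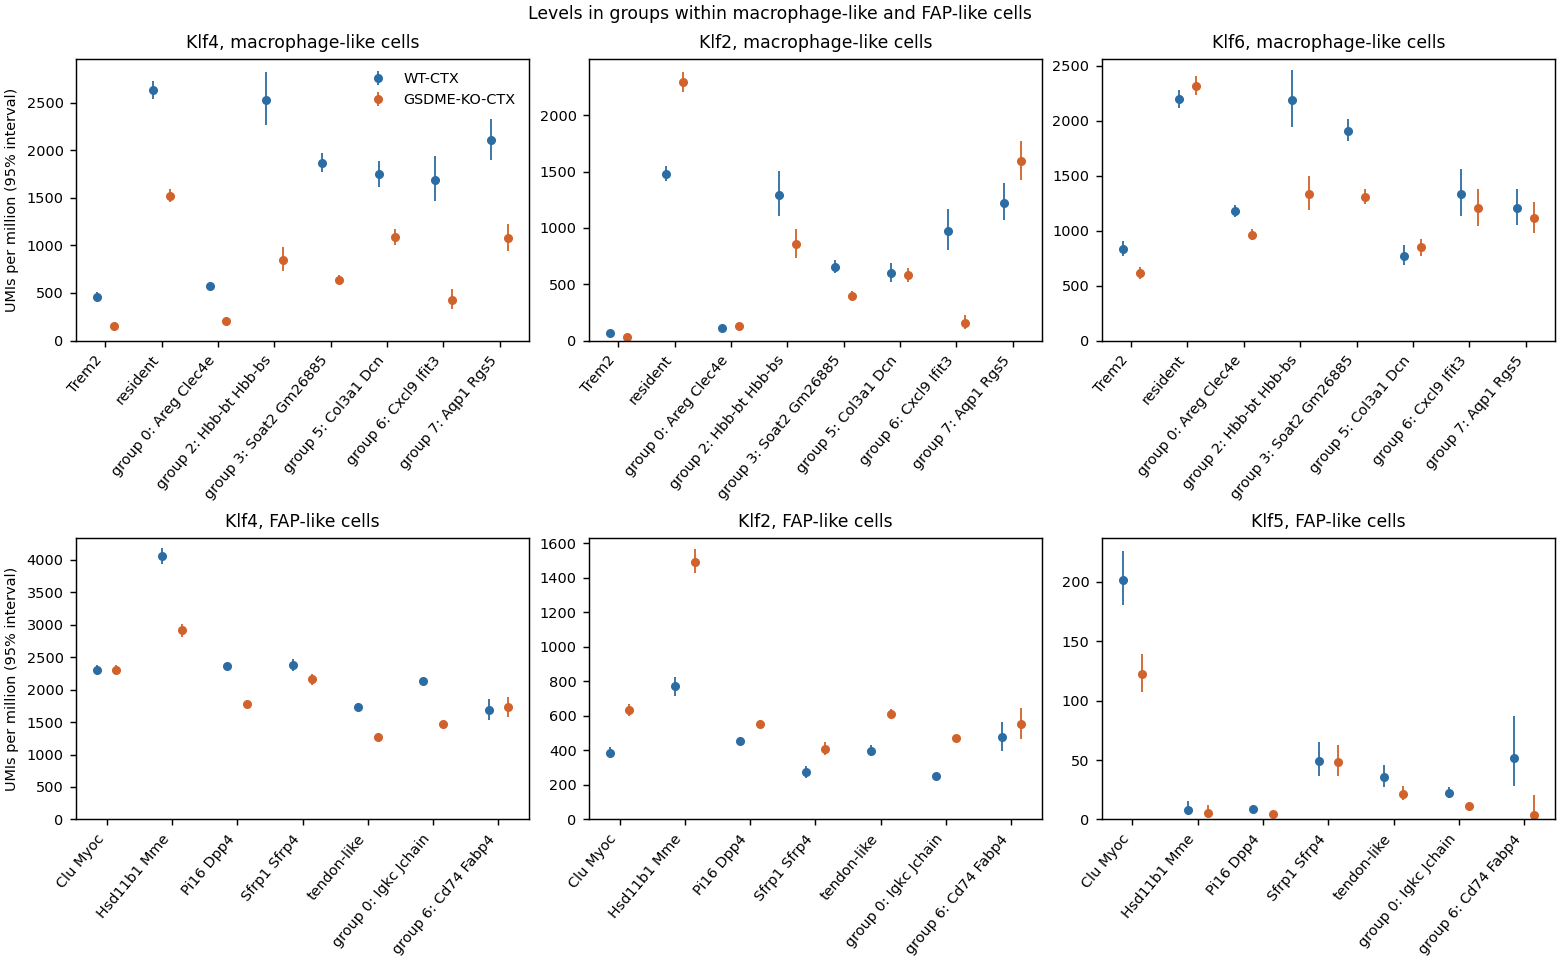
Levels (vertical axis, CPM, starting at 0, with exact 95% Poisson intervals) in groups of macrophage-like cells (top, Klf4, Klf2 and Klf6) and of FAP-like cells (bottom, Klf4, Klf2 and Klf5), blue for WT-CTX and orange for GSDME-KO-CTX. Groups without a name carry a number and their first 2 leading genes. Klf4 is lower in GSDME-KO-CTX in all 8 macrophage groups, while in the FAP groups the orange points of Klf2 lie above the blue ones in all 7 (at the resolution of 0.8 the group with tendon markers was at -0.0065).

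FAP-like cells made up 7 groups. Klf2 was higher in GSDME-KO-CTX in 7 of 7, from 0.21 to 0.95, although at the resolution of 0.8 the group with tendon markers was at -0.0065. The highest ratio was in Hsd11b1 Mme FAP-like cells (151 and 159 cells), at 770 and 1492 CPM, the group that also held the highest Klf4, 4060 CPM in WT-CTX and 2912 CPM in GSDME-KO-CTX (-0.48). That name covers only a part of the cells with these markers. In the first clustering a FAP-like cluster of 895 WT-CTX and 1198 GSDME-KO-CTX cells had Mme and Hsd11b1 among its 10 leading genes. Klf4 had an interval below 0 in 5 of 7 groups. It stood at 2306 CPM in both libraries in Clu Myoc FAP-like cells (-0.06 to 0.06) and at 1689 and 1728 CPM in a group of 29 and 22 cells led by Cd74 and endothelial genes, and was lower in Pi16 Dpp4 FAP-like cells, at 2362 and 1778 CPM (-0.41), a group whose leading genes also included hemoglobin genes. Most of the Klf5 of FAP-like cells lay in the Clu Myoc group, where it is a leading gene, with 311 of the 560 WT-CTX UMIs and 237 of the 453 GSDME-KO-CTX UMIs. There its level was 202 and 123 CPM (-0.72, -0.97 to -0.47). Klf13 was lower in all 7 groups, from -0.76 to -0.31.

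Endothelial-like cells gave 7 groups, of which lymphatic-like cells (led by Ccl21a and Prox1; 86 and 84 cells) were named. These had 3022 and 2224 CPM of Klf4 (-0.44, -0.54 to -0.35) and 1464 and 1701 CPM of Klf2 (0.22, 0.09 to 0.34). Klf4 was lower in GSDME-KO-CTX in 7 of 7 groups, with the lowest ratio in a group led by Apln, Pgf and Kit (68 cells in each library), at 1289 and 483 CPM (-1.42, -1.61 to -1.23). That group was also the one with the lowest ratio of Klf2, at 1709 and 905 CPM (-0.92, -1.06 to -0.77). The largest group, led by Timp4, Egr1 and Jun (464 and 432 cells), held the highest Klf2 in both libraries, 3061 and 3375 CPM, and the highest Klf4 in WT-CTX, 3123 CPM, but not in GSDME-KO-CTX, where it had 2102 CPM. So the near-level Klf2 of endothelial-like cells as a whole was the sum of 4 groups above 0 and 3 below.

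Jun, an AP-1 subunit and immediate-early gene, stood at 1700 CPM in WT-CTX and 1337 CPM in GSDME-KO-CTX in macrophage-like cells, and the share of cells with each of 3 KLFs was set beside it in those cells thinned to 1000 UMIs. Among cells with a Jun UMI, 76.2% (71.8 to 80.1) had a Klf4 UMI in WT-CTX and 53.9% (48.5 to 59.3) in GSDME-KO-CTX. Among cells without one, the shares were 40.2% (35.1 to 45.5) and 25.5% (22.1 to 29.2). The intervals of the libraries did not overlap on either side of this split. Klf2 was at 56.1% with and 15.9% without a Jun UMI in WT-CTX, yet the libraries overlapped, at 53.1% and 16.9% in GSDME-KO-CTX. Klf6 was at 75.5% and 58.6% in WT-CTX and at 70.3% and 54.1% in GSDME-KO-CTX, also with overlapping intervals. The share of cells with a Jun UMI itself differed, with 428 of 781 cells in WT-CTX and 343 of 947 in GSDME-KO-CTX. Of the 10 members, none was read in 8.3% of thinned macrophage-like cells in WT-CTX and in 18.1% in GSDME-KO-CTX.

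**Figure D4:**
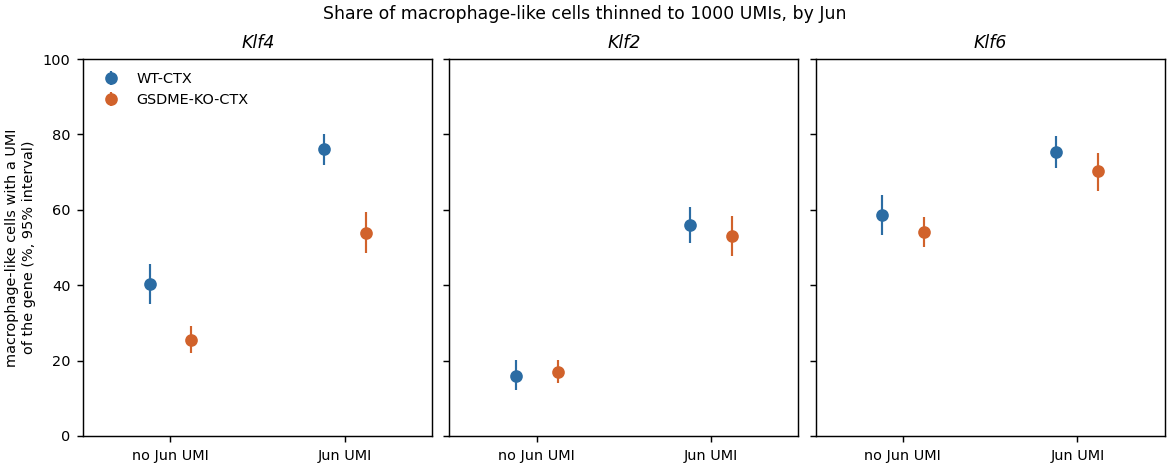
Share of macrophage-like cells, each thinned to 1000 UMIs, with a UMI of Klf4, Klf2 or Klf6 (vertical axis, percent, with exact 95% binomial intervals), for cells without and with a Jun UMI (horizontal axis), blue for WT-CTX and orange for GSDME-KO-CTX. The libraries are apart for Klf4 in both kinds of cells, 40.2% and 25.5% without and 76.2% and 53.9% with a Jun UMI, and overlap for Klf2 and Klf6. The intervals count cells and not libraries, and Klf4 was chosen for its low level, so its difference is a description.

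Lists of genes tied to the KLFs were read with the same 1.5-fold and 50 UMIs. Over all genes the shares past it downward and upward were 6.22% and 5.26% in macrophage-like, 6.51% and 3.66% in FAP-like, 4.22% and 6.99% in tendon-like, 3.52% and 4.56% in endothelial-like and 9.87% and 13% in MuSC-like cells, and every list count is to be read against them. Of 22 immediate-early genes, 0 were past 1.5-fold downward and 2 upward in macrophage-like cells (Nr4a1 and Btg2), 1 downward and 5 upward in FAP-like cells, 1 and 8 in tendon-like cells, 1 and 2 in endothelial-like cells, and 0 downward and 15 upward in MuSC-like cells, where Btg2 had 360 and 1173 CPM (log2 ratio 1.70) and Egr1, a zinc-finger factor of the same class, 1400 and 3071 CPM (1.13). Klf4 was lower in the same MuSC-like cells. Fosl1, an AP-1 subunit, was the one listed gene past 1.5-fold downward in FAP-like, tendon-like and endothelial-like cells, at 58.9 and 24.4 CPM in the last (-1.27, -1.52 to -1.02). Of the heat-shock genes, 5 of 8 were past it upward in macrophage-like cells, among them Dnajb1 at 316 and 717 CPM (1.18), and Klf4 was lower in the same cells. Whether either list bears on the level of Klf4 was not tested.

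In endothelial-like cells 0 of 7 tested genes of the list of KLF2 and KLF4 response genes passed 1.5-fold either way, with a median log2 ratio of 0.00 against 0.04 for all genes. The list gives no direction of response for its genes, so opposite responses could cancel in the median. Nothing about the action of KLF2 or KLF4 is therefore read from this median or from the counts of this list in any type. Nos3, the endothelial nitric oxide synthase, was at 174 and 168 CPM and Thbd, thrombomodulin, at 201 and 229 CPM. In macrophage-like cells 2 of 6 were past it downward, Aqp1, a water channel, at 127 and 82.8 CPM and Edn1, endothelin, at 24.6 and 3.86 CPM, where the endothelial markers summed to 145 and 152 CPM. Of that list 2 of 7 were past it downward and 1 upward in FAP-like, 3 and 1 of 5 in tendon-like, and 0 and 2 of 5 in MuSC-like cells. Another list holds 12 genes that the study names in connection with KLF4 or its partner JUN in resident macrophages, Jun itself included. It is a part of the study's own set and was drawn from these same libraries, so it is not independent evidence. In macrophage-like cells 2 of the 12 were past 1.5-fold downward, among them Lyve1 at 145 and 76.1 CPM (-0.94, -1.11 to -0.76), 0 were past it upward, and the median was -0.43 against -0.03 for all genes. In MuSC-like cells 0 of 7 were downward and 4 upward (Txnip, Ier2, Egr1 and Jun), in FAP-like cells 1 and 2 of 9, in tendon-like cells 0 and 3 of 8, and in endothelial-like cells 0 and 0 of 8.

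For the glucocorticoid response genes, of interest because Klf9 and Klf15 are among the targets of that receptor, 0 of 10 were past 1.5-fold downward and 2 upward in macrophage-like cells, the metallothioneins Mt1 (2387 and 3796 CPM) and Mt2 (360 and 545 CPM). Endothelial-like cells had 2 downward, Fkbp5 (14.3 and 9.18 CPM) and Zbtb16 (27.6 and 10.1 CPM), and 2 upward, again Mt1 and Mt2. In MuSC-like cells 0 of 10 were downward and 4 upward, with Cebpd at 517 and 1372 CPM (log2 ratio 1.41), in tendon-like cells 2 and 2, and in FAP-like cells 0 and 1, again Cebpd, at 1012 and 1764 CPM. Of the corepressor partners Ctbp1, Ctbp2, Sin3a and Fhl3, the last alone passed 1.5-fold in a type, upward in endothelial-like cells at 4.02 and 6.69 CPM. Of the KLF15 metabolic genes, 0 of 3 tested passed it in FAP-like cells, and 1 of 2 did in tendon-like cells, Bcat2, a transaminase of branched-chain amino acids, upward with a log2 ratio of 0.64. The list of KLF2 response genes of lymphocytes had 3 of 6 genes at that depth in macrophage-like cells, and 0 passed it. Among the 16 KLF and SP relatives outside the members, 13 were in the table. The most abundant over all cells in both libraries were Sp3 (80.4 and 74.5 CPM) and Sp1 (66.1 and 76.4 CPM). In FAP-like cells 0 of 8 tested relatives passed 1.5-fold, and in macrophage-like cells 1 of 6 did, Sp4 at 13.4 and 20.7 CPM. Upward calls elsewhere were Klf11 in tendon-like cells, Klf12 in endothelial-like cells and Sp2 and Sp4 in MuSC-like cells, where Klf16 was the 1 downward call.

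The genes most like each member over the 10 types and 2 libraries (Pearson correlation of log2(CPM + 10) over 20 points, 10303 genes searched) give a description of each pattern, since the 20 points share 2 libraries. Klf9 was most like Thra, the thyroid hormone receptor α (r = 0.98), then Tead1 (0.97) and Nfia (0.97). Klf10 was most like Cd93 (0.94) and Fabp4 (0.93), both genes of endothelium. Klf2 was nearest to Nhsl2 (0.91), Elk3 (0.90) and Abca3 (0.90), and Klf7 to 4930402H24Rik, Epn2 and Dlc1 (each 0.94). Klf4 was nearest to Tubb2a (0.91), Laptm4a (0.89) and Bad (0.88), and Klf5 to Olfml2a (0.93), Vgll3 (0.92) and Kremen1 (0.90). Near Klf13 were Ywhaq (0.93) and Mark2 (0.92), near Klf3 S100a13 (0.91), Ssbp4 (0.88) and Ly6e (0.86), and near Klf6 Rnf144b (0.87), Dhrs3 (0.83) and Stab1 (0.82). Between members, across the same points, Klf2 with Klf10 (0.80) and Klf2 with Klf3 (0.78) were the most alike, Klf2 with Klf4 stood at 0.40, and Klf3 with Klf5 were the least alike (-0.62). Klf15 had too few UMIs to be placed.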

How the data were processed

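The authors captured cells with a 10x 5′ kit and deposited 1 table of 19169 genes by 13432 cells, holding the natural log of 1 plus UMIs per 10000. The submitters' processing notes name Cell Ranger 2.1.1 and mm10, whereas the study's methods name another version. The authors removed doublets and cells rich in mitochondrial reads before they deposited it. Barcode suffixes give the library, and 0 columns were left unused. UMIs were recovered from the natural log values, and the largest distance from a whole number was 0.247.

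Cells were clustered with 2000 variable genes (Klf and Sp genes left out), 30 principal components, Harmony and a resolution of 0.8 (20 components and 0.4 within types) in Python 3.11.15 with numpy 2.4.6, igraph 0.11.9 and scanpy 1.11.5, and named from markers. A name needed 3 detected markers. After the clusters were seen, these rules were set: red cell markers did not count as a second lineage, and a group within a type needed 1 marker among its 10 leading genes. Scrublet called 101 WT-CTX and 109 GSDME-KO-CTX cells doublets. They were kept, and left out in an alternative.

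Levels are summed UMIs as CPM with exact Poisson intervals, ratios carry exact binomial intervals, and shares exact Clopper-Pearson ones, all at 95%. Cells were thinned to 1000 UMIs for shares. No test was possible with 1 library per genotype. UMIs are not scaled by length, so levels are compared within a gene. The named genes are the 10 members, Gsdme, the 3 genes most like each member (at least 500 UMIs) and list genes past 1.5-fold, and other list genes named were chosen after their values were seen. Some genes that this rule names are not reported here. The members and lists were chosen with earlier results of these data known. The calculations were tested on simulated data.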

Additional observations from a re-analysis of the deposited data

Results flagged for a closer look

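Klf5 had opposite signs in different cell types. Its log2 ratio of GSDME-KO-CTX over WT-CTX was -0.81 in FAP-like, -0.59 in tendon-like and -0.98 in endothelial-like cells and 1.10 in MuSC-like cells, each with a counting interval apart from 0. With 1 library per genotype the difference between cell types was not tested.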

How the results depend on the processing

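Of 45 ratios with at least 50 UMIs, 43 kept their sign under all 11 alternatives. The others were Klf3 in MuSC-like cells (0.30, lowest -0.14) and Klf9 in tendon-like cells (0.10, lowest -0.04). The Klf4 ratio in macrophage-like cells was -1.18 with cells named by marker scores, -1.22 as a mean over cells and -1.18 without the groups led by genes of other lineages, an alternative chosen after seeing the data. As a mean over cells it was -0.44 in FAP-like and -0.85 in MuSC-like cells, and -0.61 in MuSC-like cells with immediate-early and heat-shock genes left out of the clustering. At the lower fold threshold tried the counts of members were 4 lower in FAP-like cells, 2 lower and 1 higher in macrophage-like cells and 4 higher in MuSC-like cells, which was also 4 with doublets left out. With at least 200 UMIs, 1 was lower in each of FAP-like, endothelial-like and tendon-like cells, and with at least 10 UMIs 2 were lower in macrophage-like and 2 in MuSC-like cells. In tendon-like cells 1 was lower, Klf4, with no integration, at resolutions of 0.4 and 1.2, with Klf and Sp genes kept (then 0 higher), with immediate-early and heat-shock genes left out, with marker scores, as a mean over cells and with totals without ribosomal protein, immediate-early and heat-shock genes. Marker scores left 0 higher in FAP-like cells. The shares of all genes called under these other settings were not computed, so nothing is read about the members from these counts. Within groups, the Klf2 ratio turned to -0.12 (resolution 0.8) and -0.28 (immediate-early and heat-shock genes left out) in resident macrophage-like cells, to -0.0065 in the tendon-like group of FAP-like cells (resolution 0.8) and to 1.07 in Trem2 macrophage-like cells (immediate-early and heat-shock genes left out). At the resolution of 0.8 the resident name also covered a cluster with Soat2, Cbr2 and Folr2 among its leading genes, so the cells were not the same. The cause of these shifts was not tested, apart from the fold and UMI minimums, which set the counts by construction.

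No paired analysis was possible because each genotype has 1 library. Leaving out a library would leave nothing to compare. Depth limits Klf15 (204 UMIs) and Klf5 outside FAP-like and MuSC-like cells.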
